A study of Homo sapiens with 33 samples.

Results

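EZH2, the catalytic subunit of Polycomb Repressive Complex 2 (PRC2), was mapped by ChIP-seq in EZH2+/+ human embryonic stem cells (hESCs) and is described here together with 4 histone marks, input chromatin and RNA of the same cells. The windows examined are 5 kb long and centred on annotated start sites, and all of those on chromosomes 1 to 22 were taken, which gave 149487 of 153958 windows. They carry 34447 gene names, each with an RNA value, and the values come from 9 of the 33 samples of the series. The series compared EZH2+/+ hESCs with hESCs that had lost 1 or both copies of EZH2 and with EZH2-/- hESCs in which a transgene restored EZH2, and EZH2 itself was profiled only in the EZH2+/+ cells.

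All samples were H9 cells, a human ESC line, grown on mouse embryonic fibroblast feeders and flow-sorted for the surface antigen SSEA4. The EZH2+/+ cells are the parental line. The EZH2-/- cells, used below for RNA and H3K27me3, are a clonal line in which CRISPR/Cas9 disrupted the remaining allele of EZH2-/+ cells that carried a doxycycline (DOX)-inducible EZH2 transgene, and they had been kept without DOX. Between EZH2+/+ and EZH2-/- cells, the clone and the uninduced transgene cannot be told apart from the loss of EZH2. The same line with the transgene induced by DOX and the EZH2-/+ cells enter the RNA fit below but are not compared here. Their libraries share its estimate of spread and help decide which genes pass its filter on low values. Histone marks and input came from native chromatin cut with micrococcal nuclease, whereas EZH2 came from crosslinked chromatin, so the input is no matched control for EZH2. An IgG control is not analysed here. The label of the EZH2 sample gives no antibody, and its title and the study's methods name EZH2. The EZH2 column is 1 library, so no EZH2 value has a replicate. The steps between low values show each histone and input column as an average of 2 libraries, whereas the study describes its ChIP-seq data as averages over a larger number of replicates.

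PRC2 places methyl groups on lysine 27 of histone H3, and the trimethylated form (H3K27me3) is a mark of repressed developmental genes. H3K4me3 marks the start sites of CpG-rich genes, H3K27ac marks active promoters and enhancers, and H3K4me1 is found at enhancers and at the flanks of promoters. In ESCs many start sites of developmental regulators carry H3K27me3 and H3K4me3 together and are called bivalent. PRC2 in vertebrates is found mainly at CpG islands, stretches of DNA that keep many CG dinucleotides.

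The promoters of 7 genes are printed to show how the CG content of start sites differs along the range of EZH2. Each has 300 bases, from 250 before to 50 after the start, in the direction of transcription, taken from RefSeq on GRCh38.p14, with CG dinucleotides in capitals. UNCX (a homeobox gene, chr7:1232622-1232921, plus strand, 20 CG), PRDM12 (a zinc finger regulator of sensory neurons, chr9:130664344-130664643, plus strand, 27 CG) and GATA2 (a transcription factor of blood and trophoblast, chr3:128488481-128488780, minus strand, 22 CG) were among the gene names with the highest EZH2. RAET1G (a ligand of a natural killer cell receptor, chr6:149923072-149923371, minus strand, 10 CG) had much H3K27me3 with less EZH2. UBTF (a factor for ribosomal RNA transcription, chr17:44220833-44221132, minus strand, 40 CG) had EZH2 with little H3K27me3. NANOG (a pluripotency factor, chr12:7789152-7789451, plus strand, 5 CG) was active. OR13A1 (an olfactory receptor, chr10:45315559-45315858, minus strand, 2 CG) had the typical EZH2 value of its family.
UNCX: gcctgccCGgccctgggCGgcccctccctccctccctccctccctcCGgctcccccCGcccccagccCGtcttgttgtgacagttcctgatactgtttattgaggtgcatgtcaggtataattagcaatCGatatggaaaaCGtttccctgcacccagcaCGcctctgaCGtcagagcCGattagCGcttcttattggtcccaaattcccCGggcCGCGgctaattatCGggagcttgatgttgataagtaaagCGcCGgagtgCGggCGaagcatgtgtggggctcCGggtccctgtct
PRDM12: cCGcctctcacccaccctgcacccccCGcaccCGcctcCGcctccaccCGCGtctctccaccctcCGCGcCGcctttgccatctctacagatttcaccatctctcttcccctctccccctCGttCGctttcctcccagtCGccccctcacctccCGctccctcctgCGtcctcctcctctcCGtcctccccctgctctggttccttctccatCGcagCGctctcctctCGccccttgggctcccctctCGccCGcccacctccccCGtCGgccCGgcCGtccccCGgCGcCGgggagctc
GATA2: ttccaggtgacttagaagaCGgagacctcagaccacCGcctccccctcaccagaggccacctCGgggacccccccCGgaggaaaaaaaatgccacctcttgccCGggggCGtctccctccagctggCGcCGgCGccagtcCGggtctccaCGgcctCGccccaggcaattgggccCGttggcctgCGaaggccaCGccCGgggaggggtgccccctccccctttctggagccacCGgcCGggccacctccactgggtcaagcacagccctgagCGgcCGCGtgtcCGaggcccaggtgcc
RAET1G: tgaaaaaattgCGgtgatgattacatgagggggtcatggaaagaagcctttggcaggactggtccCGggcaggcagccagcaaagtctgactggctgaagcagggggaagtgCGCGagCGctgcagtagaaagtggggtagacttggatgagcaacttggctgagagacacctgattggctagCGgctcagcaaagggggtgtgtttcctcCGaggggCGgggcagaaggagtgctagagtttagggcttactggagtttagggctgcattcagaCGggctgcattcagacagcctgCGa
UBTF: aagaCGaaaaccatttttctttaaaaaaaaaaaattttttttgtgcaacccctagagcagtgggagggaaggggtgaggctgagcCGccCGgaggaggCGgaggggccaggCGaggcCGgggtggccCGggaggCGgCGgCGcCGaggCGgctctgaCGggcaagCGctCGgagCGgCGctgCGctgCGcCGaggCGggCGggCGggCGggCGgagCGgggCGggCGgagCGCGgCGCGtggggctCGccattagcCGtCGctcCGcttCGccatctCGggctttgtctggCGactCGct
NANOG: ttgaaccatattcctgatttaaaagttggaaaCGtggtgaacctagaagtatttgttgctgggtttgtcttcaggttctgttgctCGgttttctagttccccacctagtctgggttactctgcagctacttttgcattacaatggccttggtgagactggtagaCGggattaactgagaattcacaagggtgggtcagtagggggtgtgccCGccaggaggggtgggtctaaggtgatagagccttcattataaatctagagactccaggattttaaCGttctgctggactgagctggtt
OR13A1: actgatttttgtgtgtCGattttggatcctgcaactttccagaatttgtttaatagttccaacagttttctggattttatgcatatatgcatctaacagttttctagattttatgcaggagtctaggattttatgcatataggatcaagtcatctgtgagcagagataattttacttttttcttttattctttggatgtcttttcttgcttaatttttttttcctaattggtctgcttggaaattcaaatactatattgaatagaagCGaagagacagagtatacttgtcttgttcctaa

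Of all 35116 promoters in the same reference, 96% held at least 1 CG and 41.2% held 20 or more, with a median of 14. Promoters inside the window used were found for 12892 of the 34447 gene names (37.4%), and the one with the most CG was kept for each name. Over all of these the median was 25 CG, and 63.6% held 20 or more. When gene names were placed in 10 classes by EZH2, the median was 3 CG in the lowest class, 20 in the fifth and 31 in each of the highest 2. It was lower, at 24, in the 157 matched promoters of the 345 gene names with the most EZH2, among them the 3 developmental genes printed above. A CG count in these 300 bases describes the window and is no measure of binding.

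EZH2 was low at most start sites and high at few. Its median was 0.311 RPM (reads in the window, scaled to the size of the library), which is 29 reads of a library of 93200000 reads, the 90th percentile was 0.858 RPM, the 99th was 3.43 RPM and the maximum was 16.9 RPM. No read was seen in 229 windows, which allows up to 0.0322 RPM (3 reads). Intervals and limits of this kind cover counting error only. H3K27me3 had a median of 1.50 RPM and a maximum of 85.0 RPM. A window was taken to carry a mark above 0.1 log2 RPKM, which is 5.36 RPM in 5 kb, a threshold that 12.4% of windows passed for H3K27me3 and 47.3% for H3K4me3.

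H3K27me3 rose with EZH2 only in the upper part of the range, whereas H3K4me3 followed EZH2 from the middle of it. In the 10 classes of windows by EZH2, median H3K27me3 lay between 1.14 and 1.86 RPM in the lowest 9 and at 8.50 RPM in the highest. Median H3K4me3 was 2.38 RPM in the fifth class, 6.93 RPM in the sixth and 12.5 RPM in the highest. Within the highest class, H3K27me3 went from 2.17 RPM in the 91st percentile of EZH2 to 9.95 RPM in the 97th and 36.8 RPM in the 100th. H3K4me3 stayed between 12 and 13.2 RPM across the same percentiles. H3K27ac moved the other way, from 2.36 RPM in the 91st percentile to 1.13 RPM in the 100th, where input was 1.18 RPM. H3K4me1 was 3.35 RPM in the 91st percentile and 4.46 RPM in the 100th. The most EZH2-rich windows thus held the most H3K27me3, an H3K4me3 level like that of the windows just below them, and a median H3K27ac below that of input.

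**Figure D1:**
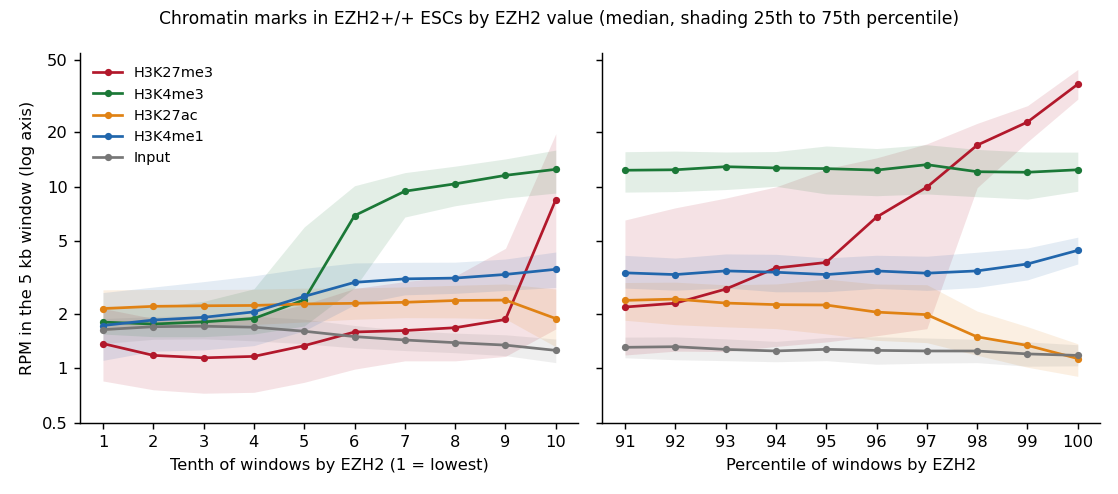
Median RPM (log axis) of 4 histone marks and input in EZH2+/+ hESCs, with shading from the 25th to the 75th percentile of windows, against the EZH2 class of the window (left, 10 classes; right, percentiles 91 to 100). H3K27me3 climbs to 36.8 RPM in the last percentile while H3K27ac falls to 1.13 RPM.

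Across all 149487 windows the Spearman correlation of EZH2 was 0.755 with H3K4me3, 0.702 with the number of CpG in the window, 0.446 with H3K4me1, 0.343 with H3K27me3, 0.03 with H3K27ac and -0.383 with input. These are descriptions over windows that overlap each other, share libraries and differ in base composition. Among the 18583 windows over the H3K27me3 threshold the order changed. There EZH2 had a correlation of 0.686 with H3K27me3, 0.453 with H3K4me3 and -0.337 with H3K27ac. In the 130904 other windows the values were 0.147 with H3K27me3 and 0.737 with H3K4me3. The relation of EZH2 to its product was therefore seen mainly where the product was present, and elsewhere EZH2 went with H3K4me3 and CpG.

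Bivalent windows had the most EZH2. Their median was 0.880 RPM (25th to 75th percentile 0.569 to 1.55 RPM, 15635 windows), which is 5.12-fold that of the 75896 windows with neither mark (0.172 RPM). Windows with H3K4me3 only had 0.526 RPM (55004 windows) and windows with H3K27me3 only had 0.440 RPM (2924 windows). H3K27me3 without H3K4me3 thus came with less EZH2 than H3K4me3 without H3K27me3. The CpG numbers differed in the same order, with medians of 193, 159, 128 and 60 in the bivalent, H3K4me3-only, H3K27me3-only and unmarked windows.

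At similar CpG number bivalent windows were again highest, and the order of the singly marked windows turned at the CpG-rich end. With 49 to 89 CpG, EZH2 was 0.408 RPM in bivalent, 0.258 RPM in H3K27me3-only, 0.343 RPM in H3K4me3-only and 0.172 RPM in unmarked windows. With 185 to 612 CpG it was 1.19, 0.858, 0.665 and 0.225 RPM in the same order. In unmarked windows EZH2 changed little with CpG, from 0.161 RPM at the lowest to 0.225 RPM at the highest numbers. In windows with H3K27me3, H3K4me3 or both, EZH2 was higher at each step of CpG number. Base composition can also change how well a window is recovered in a library, and its part in these values was not tested.

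**Figure D2:**
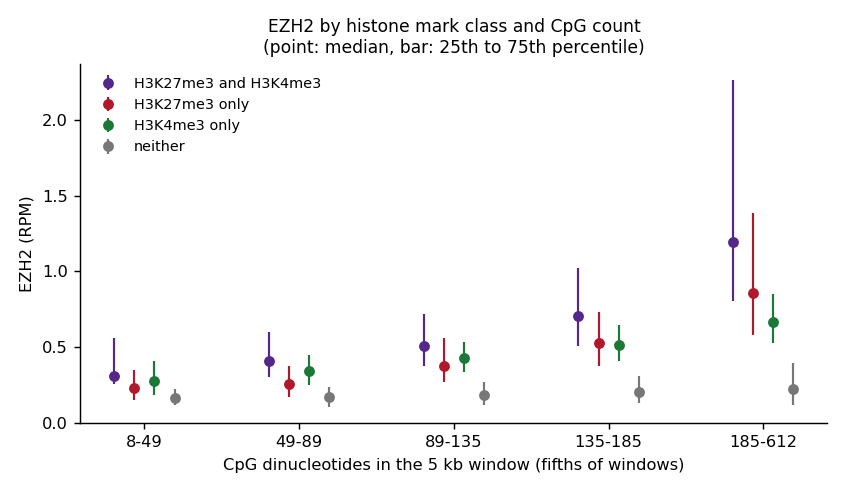
EZH2 (RPM) in EZH2+/+ hESCs against the number of CpG in the 5 kb window, for windows with both marks, 1 of the marks or neither. Points are medians and bars run from the 25th to the 75th percentile of windows. Bivalent windows are highest in all CpG classes and reach 1.19 RPM, while unmarked windows stay between 0.161 and 0.225 RPM.

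The 1495 windows in the highest percentile of EZH2 (3.43 RPM or more, median 5.39 RPM or 502 reads) were nearly all marked. H3K27me3 passed the threshold in 99.1% of them, H3K4me3 in 95.0% and both in 94.2%. The windows richest in H3K27me3 were often the same ones. Of the 1496 windows in the highest percentile of H3K27me3, 1122 were in the highest percentile of EZH2, which is 75% of the H3K27me3 windows and 75% of the EZH2 windows. All but 2 of the 1496 lay in the highest 10% by EZH2. The whole highest 10% by EZH2 was more mixed, and 3281 of its windows (21.9%) had H3K27me3 below the median of all windows.

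Overlapping windows among the 1495 merged into 400 regions with 568 gene names and a median length of 5890.5 bp. A single window made up 102 of them, and 40 were at least 10 kb long. The 4 regions of at least 20 kb lay over developmental genes. The longest, at chr7:27163026-27190319 on GRCh38 (27293 bp), holds starts of HOXA9, HOXA10 and HOXA11. Its neighbour holds starts of HOXA3, HOXA5, HOXA6 and HOXA7 (23138 bp). Another holds starts of PAX6, an eye and forebrain regulator, and of RCN1 (22315 bp). The last holds starts of HOXC6, HOXC9 and HOXC10 (20795 bp). HOXA4 and HOXC8 lay in separate regions. These names were read after the lengths were known. A region cannot reach beyond the windows, so its length also depends on how densely start sites are annotated. The order of lengths depends on the merging as well. In the HOXB cluster, regions at chr17:48587735-48599634 and chr17:48599638-48617439 nearly touch but do not overlap, so they were counted separately.

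The highest single values were at 3 sites on chromosome 17. TBX2-AS1 (ENSG00000267280, chr17:61396870-61401870), antisense to the T-box factor gene TBX2, had 16.9 RPM (1572 reads, 95% interval 16.0 to 17.7 RPM) with 50.5 RPM of H3K27me3, and the overlapping TBX2 window had 16.0 RPM. HOXB-AS3, a noncoding gene within the HOXB cluster, had 14.9 RPM. RP11-353N14.1 had 14.5 RPM in a window shared with CBX8 (13.1 RPM), a gene for a chromobox subunit of Polycomb Repressive Complex 1. Windows of neighbouring genes share reads, so each of these groups is a single site.

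The next 9 names lay within a narrow range. UNCX, SKOR1 (a corepressor of the nervous system) and PRDM12 each had 12.2 RPM, and ONECUT3 (a cut-homeobox factor) and AC008060.8 (a noncoding gene that overlaps the homeobox gene EN2, 10.9 RPM) each had 12.1 RPM. TBX4 (a hindlimb and lung T-box factor) and GATA2 each had 11.4 RPM. LHX1 (a LIM homeobox gene of head and kidney development) had 11.3 RPM, and RP11-123K19.1 (beside LMX1B, 10.6 RPM) had 11.1 RPM. With 12 gene names chosen as the highest by EZH2, at most 1 within 50 kb, these values are a description. What the choice did not use was also alike among them. H3K27me3 ran from 40.1 to 60.9 RPM, H3K4me3 from 7.70 to 21.2 RPM, H3K27ac from 0.681 to 1.49 RPM and the CpG number from 268 to 456. Input, which the choice had only limited, was 0.840 to 1.66 RPM and below its overall median of 1.50 RPM at 10 of the 12.

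Gene families were compared by the window with the most EZH2 for each gene name, for which the median over all 34447 names was 0.343 RPM. The homeobox genes of the HOX clusters, which set position along the body axis, had a median of 8.26 RPM over 39 genes, and 36 of them reached 3.43 RPM. HOXB8 was highest with 14.0 RPM and HOXB1 lowest with 1.02 RPM. HOXB1 also had the least H3K27me3 of the family (13.9 RPM), where the median was 50.2 RPM. All 5 GATA genes, factors of endoderm, heart and blood, passed 3.43 RPM with a median of 7.91 RPM (GATA4, 7.91 RPM).

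Other families of developmental factors followed with a wider spread. Medians were 6.62 RPM for PAX genes (9 genes), 6.11 RPM for LIM homeobox genes (12), 5.57 RPM for NKX genes (12), 5.55 RPM for DLX and IRX genes (12), 5.52 RPM for T-box genes (12) and 5.03 RPM for FOX genes (18). Among T-box genes, T, which encodes Brachyury and is a mesoderm regulator, had 5.71 RPM and TBX3 had 5.83 RPM. Single members of these families were low. PAX4, a pancreatic endocrine factor, had 0.150 RPM and FOXI1, a factor of ear and kidney, had 0.182 RPM, with 5.86 and 13.7 RPM of H3K27me3. The 12 SOX genes of the developmental list had a median of 3.55 RPM, from 0.408 RPM at SOX5 to 7.30 RPM at SOX1, a neural factor, and 7.21 RPM at SOX17, an endoderm factor. Neural bHLH genes had 3.11 RPM, from 0.150 RPM at NEUROD6 to 7.74 RPM at NEUROD2. WNT ligands had 2.2 RPM, with WNT7B highest at 6.20 RPM.

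Cell cycle inhibitors of the CDKN families had a median of 1.55 RPM over 7 genes. CDKN2A, which encodes p16 and ARF, was the only one of them over 3.43 RPM (3.55 RPM, with 38.0 RPM of H3K27me3), its neighbour CDKN2B had 1.57 RPM, and CDKN1B was lowest with 0.547 RPM. Genes for the Polycomb complexes themselves were mostly low. Subunits of PRC2 had a median of 0.751 RPM over 11 genes, from 0.461 RPM at MTF2 to 1.78 RPM at C17orf96, and the EZH2 gene had 1.05 RPM with 1.59 RPM of H3K27me3. Subunits of PRC1 had 0.837 RPM over 20 genes. CBX8 was the highest of them with 13.1 RPM, and PHC3, for a polyhomeotic subunit, the lowest with 0.322 RPM.

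Expressed families had far less EZH2 than the developmental families but more than the median name, mostly without H3K27me3. Pluripotency genes had a median of 0.773 RPM over 14 genes, with NANOG at 0.354 RPM, POU5F1 at 0.579 RPM and SOX2 at 0.858 RPM. UTF1, an ESC chromatin factor, was the highest of them (3.08 RPM) and had 25.5 RPM of H3K27me3, and DPPA2 the lowest (0.172 RPM). Ribosomal protein genes had 0.724 RPM (80 genes) and housekeeping genes 1.26 RPM (12 genes), and none of either list passed the H3K27me3 threshold. ACTB, which encodes beta-actin, had 3.33 RPM of EZH2 with 1.84 RPM of H3K27me3. Genes of the histone clusters, which encode core and linker histones, had a similar level with little RNA in this counting (18 of 70 at 1 RPM or more). Of these 70, 52 were in the highest 10% by the window threshold of 0.858 RPM, their median EZH2 was 1.16 RPM, their median H3K27me3 was 1.11 RPM, and none passed the H3K27me3 threshold.

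Other large families had EZH2 near the lowest values, whether silent or expressed. Olfactory receptor genes had a median of 0.129 RPM (382 genes) and keratin and keratin-associated genes 0.129 RPM (147 genes), and both lists had a median RNA of 0. ZNF genes on chromosome 19 had 0.193 RPM of EZH2 (240 genes), and 176 of them had at least 1 RPM of RNA. Clustered protocadherin genes, cell adhesion genes of neurons, had 0.118 RPM of EZH2 (53 genes), with 38 at 1 RPM of RNA or more, although their windows held a median of 156 CpG, more than the 113 of all names. No gene of these 4 families reached 3.43 RPM. The first pair of lists was mostly silent with little EZH2, with 0 olfactory receptor and 6 keratin or keratin-associated genes at 1 RPM of RNA or more. The protocadherin windows were rich in CpG with little EZH2.

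**Figure D3:**
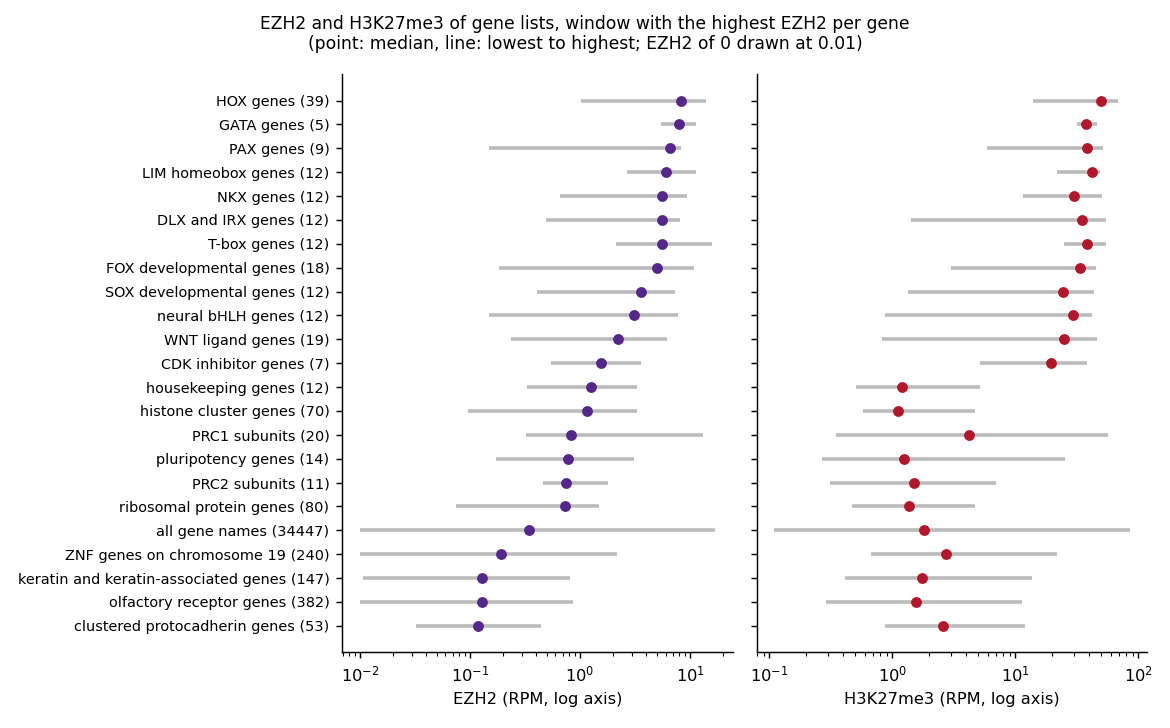
EZH2 (left) and H3K27me3 (right) in RPM on log axes for gene lists in EZH2+/+ hESCs, with the number of measured genes in brackets, at the window with the most EZH2 for each gene. Points are medians and bars run from the lowest to the highest member. HOX genes are highest with a median of 8.26 RPM of EZH2, and clustered protocadherin genes lowest with 0.118 RPM.

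A set of windows had high EZH2 with H3K27me3 below its median, and the 6 highest were chosen by that rule. MALAT1, an abundant nuclear noncoding RNA (chr11:65502704-65507704), had 3.86 RPM of EZH2 (360 reads, 95% interval 3.47 to 4.28 RPM) with 1.08 RPM of H3K27me3. HIST2H3A, a histone H3 gene, had 3.32 RPM, and NEAT1, a noncoding RNA of nuclear paraspeckles, had 2.62 RPM. SNORD3C and SNORD3B-2, copies of the U3 small nucleolar RNA, had 2.58 and 2.29 RPM, and UBTF had 2.25 RPM. H3K27me3 was 0.864 to 1.42 RPM at the 6 windows, while H3K4me3 was 3.94 to 24.5 RPM and H3K27ac 2.60 to 3.61 RPM, at or above the H3K27ac median of 2.24 RPM. The U3 and histone copies are near-identical to their relatives, and reads there could be split among copies. Without a matched control, EZH2 binding and background signal at the 6 windows cannot be told apart. MALAT1 RNA was 41.9, 67 and 89.8 RPM and UBTF RNA 105, 71.9 and 86.6 RPM in the 3 EZH2+/+ libraries. UBTF also has the most CG of the promoters printed above.

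The opposite set had H3K27me3 in its highest percentile with the least EZH2, and it was not free of EZH2. C1orf61, a gene expressed in fetal brain (chr1:156428201-156433201), had 0.837 RPM (78 reads) with 31.2 RPM of H3K27me3. RAET1G had 1.11 RPM, TCEA3 (an elongation factor gene) 1.13 RPM, ITGA11 (a collagen-binding integrin) 1.14 RPM, and RIPK3 (a kinase of necroptosis) and RP11-514D23.1 each had 1.17 RPM. Their H3K27me3 was 31.2 to 36.3 RPM. All 6 lay above the overall EZH2 median of 0.311 RPM, and their CpG numbers, from 69 to 192, were below the 268 of the highest EZH2 percentile. The RAET1G promoter printed above has 10 CG.

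**Figure D4:**
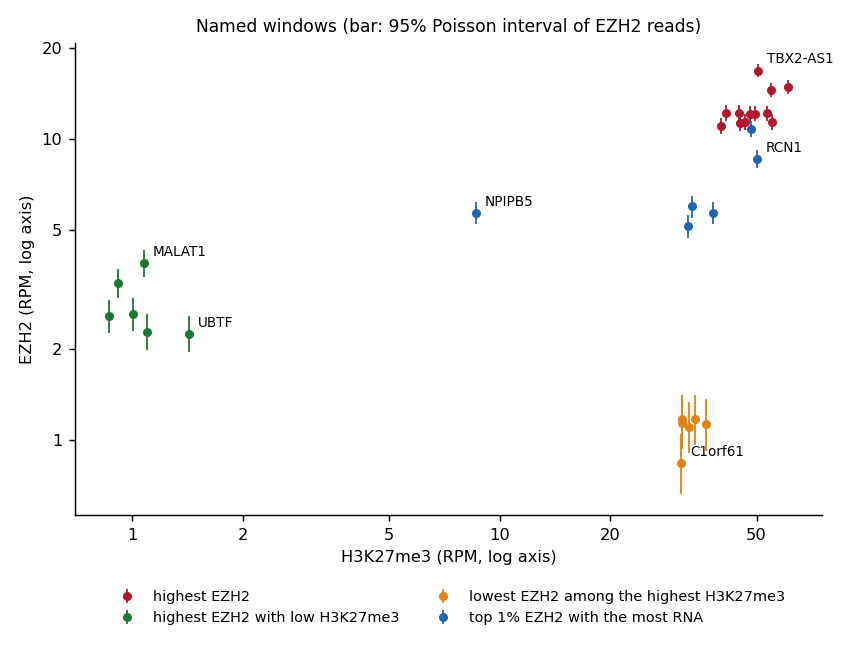
EZH2 against H3K27me3 (both RPM, log axes) for the named windows in EZH2+/+ hESCs. Colours give the rule that chose each window, and bars are 95% Poisson intervals of the EZH2 reads. MALAT1 (3.86 RPM of EZH2) and C1orf61 (31.2 RPM of H3K27me3) lie on opposite sides of the remaining windows.

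Windows with unusually high input are kept apart, since other columns were high there too. RP5-857K21.5 had 12.2 RPM of EZH2 with 10.2 RPM of input and 8.19 RPM of H3K27me3, and LINC01410, a long noncoding RNA, had 7.47 RPM of EZH2 with 5.26 RPM of input and 85.0 RPM of H3K27me3. The other 3 of the 5 gene names chosen by this rule had 2.46 to 2.69 RPM. Only 4 of the 1495 windows in the highest EZH2 percentile had input above its 99th percentile (2.43 RPM). Chromosome 17 also stood apart. Its unmarked windows had an EZH2 median of 0.225 RPM, against 0.129 to 0.182 RPM on the other 21 chromosomes. At the same windows, input was 0.959-fold that of the other chromosomes in EZH2+/+ cells and 0.905-fold in EZH2-/- cells, and H3K27me3 in EZH2+/+ cells was 1.12-fold. The ratio of EZH2+/+ to EZH2-/- input was 1.09 there, the highest of the 22 chromosomes, with 1.08 on chromosome 21 next. The part of these differences in the EZH2 values was not tested. Chromosome 17 held 183 of the 1495 windows and 5 of the 12 names listed above as highest. Without it, the ratio of bivalent to unmarked windows was 5.00.

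RNA was read for the same gene names to ask how much transcript came with each level of EZH2. In these bulk samples fewer cells that express a gene and less RNA per cell cannot be told apart. Median RNA was highest in the eighth of 10 classes by EZH2, lower in the highest class and lower still in the 345 names with the most EZH2. In the 10 classes of gene names by EZH2, median RNA was 0 RPM in each of the lowest 4 in all 3 EZH2+/+ libraries. It was 14.7, 14.5 and 13.2 RPM in the eighth class and 1.75, 1.55 and 1.46 RPM in the highest. In the 345 names with the most EZH2 (5.02 RPM or more) it was 0.0444, 0.0507 and 0.0219 RPM, below the 3-read limit of 0.0666, 0.0761 and 0.0656 RPM. The share of names with at least 1 RPM was 78.6%, 78.7% and 78.7% in the eighth class and 21.2%, 19.4% and 18.0% in the 345 names. The 3 libraries differed far less from each other than the classes did.

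Names in the highest class of EZH2 were of several kinds. The 411 with H3K27me3 below the median of windows had median RNA of 32.9, 32.0 and 32.2 RPM, and 3.15 RPM of H3K27ac. The 2553 with H3K27me3 over the threshold had 0.799, 0.659 and 0.699 RPM of RNA, and 1.33 RPM of H3K27ac. The 481 between them had 19.6, 19.1 and 18.8 RPM of RNA. High EZH2 values therefore came with high RNA or with little RNA, according to the H3K27me3 of the window. As no matched control is analysed, EZH2 binding and background signal cannot be told apart in these values.

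Where H3K27me3 was below its median, EZH2 was higher the more RNA the gene had. Its median was 0.161 RPM in 4518 names without a read, 0.215 RPM in 3176 below 1 RPM of RNA, 0.343 RPM in 1785 with 1 to 10 RPM and 0.526 RPM in 3558 with 10 to 100 RPM. It reached 0.665 RPM in 653 names with 100 to 1000 RPM and 0.816 RPM in 24 with more. The CpG number rose alongside, from a median of 37 to 168, and input fell from 1.81 to 1.21 RPM. The part of either, or of background in the EZH2 library, was not tested. Where H3K27me3 was over the threshold there was no such order. EZH2 was 0.746 RPM in 796 names without a read, 0.955 RPM in 2112 below 1 RPM, and 0.891, 0.848 and 0.901 RPM in the next 3 classes of RNA.

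Some names with EZH2 of 5.02 RPM or more were expressed, and the 6 with the most RNA in their lowest library were chosen by that rule. RCN1, which encodes a calcium-binding protein of the endoplasmic reticulum, had 8.56 RPM of EZH2 and 177, 206 and 206 RPM of RNA. Its EZH2-rich window overlaps PAX6. Another start of RCN1, at chr11:32088404-32093404, had 0.837 RPM of EZH2, 13.1 RPM of H3K4me3 and 2.98 RPM of H3K27ac. PHLDB1, for a cytoskeletal adaptor, had 5.97 RPM of EZH2 and RNA of 51.2, 38.6 and 40.4 RPM, and 6 of its windows with H3K4me3 and no H3K27me3 had 0.215 to 0.504 RPM. ABR, for a regulator of small GTPases, had 5.13 RPM of EZH2, RNA of 53.0, 38.0 and 38.4 RPM, and a further such window at 0.601 RPM. For these 3 genes the EZH2-rich start was not the only one, and gene-level RNA does not say which start was used.

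For the other 3 no such start was listed. WRAP73, a centrosomal protein gene, had 5.68 RPM of EZH2 in a window that overlaps TP73, and RNA of 17.4, 17.2 and 20.1 RPM. NPIPB5 had 5.69 RPM of EZH2 with 8.61 RPM of H3K27me3 and belongs to a family of near-identical copies, so its counts (25.1, 23.8 and 30.7 RPM of RNA) are uncertain. NPTX1, which encodes a neuronal pentraxin, had 10.8 RPM of EZH2 and 48.2 RPM of H3K27me3, and all 4 of its windows were in the highest EZH2 percentile. Its RNA was 28.6, 16.7 and 30.8 RPM in EZH2+/+ cells, a gene with EZH2, H3K27me3 and RNA in the same cell population.

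Lastly, the RNA of EZH2-/- cells was read by the EZH2 level that each gene had in EZH2+/+ cells. The targeted gene itself, EZH2, had RNA at 68.6, 63.3 and 59.5 RPM in the EZH2+/+ libraries and at 11.5, 8.65 and 9.68 RPM in the EZH2-/- libraries. Of 20608 genes tested, 12.6% were called higher and 18.8% lower in EZH2-/- cells (2593 and 3870 genes, limma with a Benjamini-Hochberg adjusted p under 0.05). The study describes the libraries of a line as biological replicates without saying whether they were separate cultures, and p-values measure the spread between these libraries, each genotype being 1 line. Of the 345 names with the most EZH2, 175 passed the filter on low values, 72 were called higher and 22 lower, which is 20.9% and 6.38% of the 345. Over all 34447 names the shares were 6.45% and 11.1%. In the 411 names with high EZH2 and low H3K27me3 they were 4.38% and 18.7%, and in the 2553 with both high they were 15.7% and 12.3%. A name with almost no RNA in EZH2+/+ cells passes the filter only through other libraries and can hardly be called lower, so these counts are a description.

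The counts depend on the fit. Library numbers marked EZH2+/+ and EZH2-/- libraries that deviate together. With the library number as a replicate block 81 of the 345 names were higher and 36 lower (23.5% and 10.4%). Over all genes tested the shares were 17.3% and 28.0%. The former are shares of all 345 names, of which only 175 were tested, so the 2 pairs of shares have unlike bases. With median ratio scaling, chosen after seeing the data, the split over all genes turned from 2593 higher and 3870 lower to 3294 and 2918, as the median log2 fold change of the genes tested moved from -0.13 to -0.02, while the 345 names had 76 and 19. Without EZH2-/- library 2 the genes called fell from 6463 to 4107 and without EZH2+/+ library 2 to 4288, and the 345 names had 53 higher and 14 lower without the former. Without EZH2+/+ library 1, 11 of the 345 names were called lower.

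**Figure D5:**
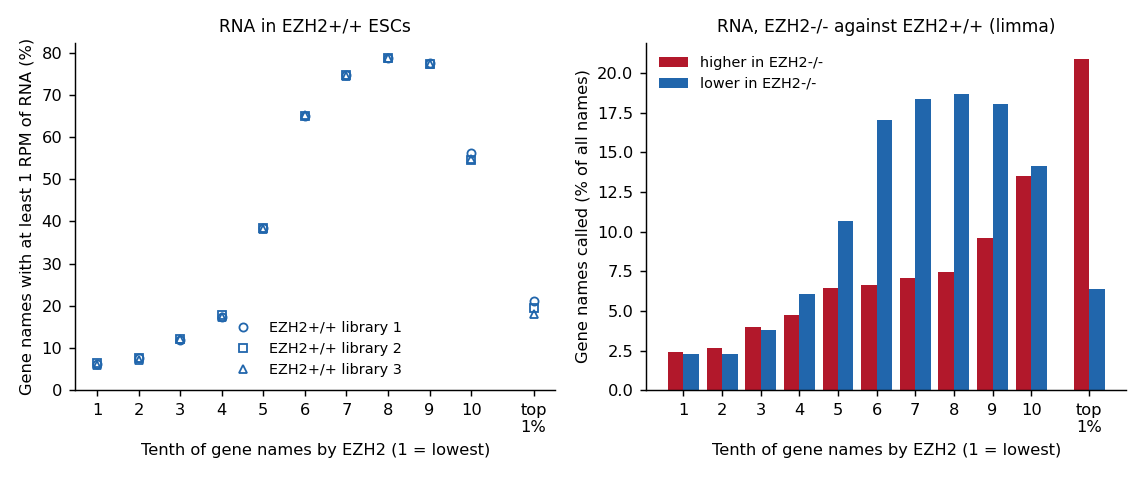
Gene names in 10 classes by EZH2 in EZH2+/+ hESCs and the 345 names with the most EZH2 (top 1%). Left, percent of names with at least 1 RPM of RNA in each of 3 EZH2+/+ libraries; right, percent of names called higher or lower in EZH2-/- cells by limma. The top 1% has 21.2%, 19.4% and 18.0% of names at 1 RPM and 20.9% called higher.

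Genes with high EZH2 changed in both directions in EZH2-/- cells. Of the 12 highest names, 6 passed the filter, of which LHX1, GATA2 and TBX4 were called higher and PRDM12 lower. Over all genes tested 12.6% were called higher and 18.8% lower. GATA2 went from 0.155, 0.355 and 0.109 RPM of RNA in EZH2+/+ cells to 0.739, 3.53 and 2.61 RPM in EZH2-/- cells (log2 fold change 2.80, SE 0.55, limma adjusted p = 0.0025). LHX1 RNA was 1.24, 0.558 and 0.0437 RPM against 7.56, 18.6 and 10.4 RPM (log2 fold change 4.51, SE 0.93, limma adjusted p = 0.0034). For both genes the groups did not overlap. TBX4 RNA was 0, 0.0254 and 0 RPM, under the 3-read limit, against 0.264, 6.10 and 3.21 RPM. It passed the filter only through libraries where it was high, so its call is counted but its test is not given. PRDM12 was at 0.200, 0.152 and 0.175 RPM against 0.0352, 0.0188 and 0.0297 RPM (log2 fold change -1.11, limma adjusted p = 0.028), and this call did not hold when any library was left out. The limma adjusted p was 0.053 to 0.088 without any of 5 libraries, and without EZH2+/+ library 1 the gene did not pass the filter.

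The counts in families stand beside 12.6% higher and 18.8% lower over all genes tested. Members silent in EZH2+/+ cells entered only where another genotype expressed them, so the counts describe the tested members and not the families. Of 39 HOX genes 21 were tested, 11 were higher and 2 lower. Of the T-box genes 8 of 9 tested were higher, of FOX genes 9 of 15 and of GATA genes 4 of 5, with 1 lower in all 3 lists together (a FOX gene). PAX genes had 1 higher and 4 lower of 7, SOX genes 2 and 5 of 11, WNT ligands 4 and 7 of 16, DLX and IRX genes 1 and 2 of 8, LIM homeobox genes 3 and 2 of 8, and NKX and neural bHLH genes each 1 and 0 of 5. With median ratio scaling the SOX list had 3 higher and 4 lower and the WNT list 4 and 6, and in the HOX, T-box, FOX, GATA, PAX, SOX and WNT lists the larger count kept its direction. TBX3 went from 1.04, 1.47 and 0.503 RPM to 7.12, 16.0 and 10.4 RPM (log2 fold change 3.38, SE 0.50, limma adjusted p = 0.00044). HOXB1, the HOX gene with the least EZH2, went down from 13.8, 35.8 and 7.65 RPM to 2.78, 2.97 and 4.87 RPM (log2 fold change -2.15, SE 0.51, limma adjusted p = 0.0075).

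Other EZH2-rich genes were lower in EZH2-/- cells. NPTX1 had 0.756, 0.451 and 1.10 RPM in EZH2-/- cells (log2 fold change -4.90, SE 0.62, limma adjusted p = 0.00018). SOX1 had 9.41, 9.33 and 3.50 RPM in EZH2+/+ cells, against 0, 0.0188 and 0.0297 RPM in EZH2-/- cells, the latter all under the 3-read limit (limma adjusted p = 1.2e-05). Among the genes with less EZH2, CDKN2A went from 0.444, 0.456 and 0.328 RPM to 10.0, 14.1 and 15.0 RPM (log2 fold change 4.68, SE 0.32, limma adjusted p = 5.1e-06). UTF1 went from 1.33, 1.65 and 2.29 RPM to 16.1, 26.4 and 25.6 RPM (log2 fold change 3.62, SE 0.32, limma adjusted p = 1.9e-05). C1orf61, with the least EZH2 of the H3K27me3-rich windows, was at 0.844, 0.609 and 0.656 RPM against 2.11, 3.68 and 3.21 RPM (log2 fold change 1.92, SE 0.48, limma adjusted p = 0.0092).

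Some markers of differentiated cells differed between the genotypes. The summed RNA of 6 endoderm markers was 49.0, 42.1 and 22.5 RPM in EZH2+/+ cells, against 197, 465 and 162 RPM in EZH2-/- cells, and that of 7 mesoderm markers was 94.4, 93.3 and 55.7 RPM against 221, 290 and 209 RPM. The sum of 6 neuroectoderm markers went from 20.2, 19 and 8.28 RPM to 2.23, 3.34 and 2.73 RPM. Not all members of these lists were called. Of the endoderm markers 4 of 6 were called higher, and of the mesoderm markers 3 of 7 (limma). Of the neuroectoderm markers 2 of the 4 tested were called lower. Over all genes tested 12.6% were called higher and 18.8% lower. Sums of 5 trophectoderm and 5 fibroblast markers overlapped between the genotypes, from 4.01 to 9.41 RPM against 5.19 to 11.5 RPM and from 286 to 360 RPM against 285 to 528 RPM. Single markers within both lists differed all the same. Of the fibroblast markers COL3A1, LUM and THY1 were called higher and COL1A2 lower, and of the trophectoderm markers GATA2 and GATA3 were called higher (limma, named after their values were seen). COL3A1, a fibrillar collagen gene, had 2.2, 3.96 and 0.153 RPM in EZH2+/+ cells, against 4.70, 109 and 47.8 RPM in EZH2-/- cells. The calls of COL3A1 and LUM were lost without EZH2-/- library 2 (limma adjusted p = 0.066 and 0.074) and without EZH2+/+ library 3 (limma adjusted p = 0.054 and 0.063), and that of LUM also without EZH2-/- library 3 (limma adjusted p = 0.056). The sum of 8 undifferentiated ESC markers ranged from 2357 to 2978 RPM over the EZH2+/+ libraries and from 3730 to 4245 RPM over the EZH2-/- libraries. All 8 had at least 1 RPM in EZH2+/+ cells. Of these, 5 were called higher and 1 lower (limma), against 12.6% and 18.8% of all genes tested. SOX2 went against the sum, from 219, 203 and 249 RPM in EZH2+/+ cells to 135, 88.0 and 105 RPM in EZH2-/- cells. No marker of these lists was at 0 in all 3 EZH2+/+ libraries. Their part in the counts above was not tested.

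Median H3K27me3 in EZH2-/- cells was low at all EZH2 levels, and it was highest where EZH2 had been highest. In the windows of the highest EZH2 percentile, the median of 36.8 RPM in EZH2+/+ cells compared with 2.05 RPM in EZH2-/- cells, with 1.23 RPM of input in the latter. H3K27me3 exceeded input in 80.1% of these windows in EZH2-/- cells, against 14.5% of all windows and 34.3% of the percentile below. The 12 highest names had 2.33 to 9.54 RPM, with ONECUT3 highest. Some windows under the H3K27me3 threshold in EZH2+/+ cells also exceeded input in EZH2-/- cells. ACTB had 3.53 RPM with 0.780 RPM of input and GAPDH 3.23 RPM with 0.657 RPM, whereas UBTF had 0.597 RPM with 0.812 RPM. A value over input in this column therefore does not by itself show that the mark remained. RPM values are scaled to each library, so a loss of the mark from the whole genome is not seen in full, and these columns have no separate replicates to test the difference.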

How the data were processed

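RNA-seq and ChIP-seq were carried out on flow-sorted H9 hESCs. Per the labels and methods, the authors trimmed reads with Trim Galore 0.4.0 and aligned them to GRCh38 with Bowtie2 2.2.5 (ChIP-seq) or TopHat2 2.0.12 (RNA-seq), versions credited to the submitters' processing notes. In SeqMonk they counted non-duplicated reads 2.5 kb either side of start sites, or RNA reads per gene without regard to strand, and deposited log2 RPM, in which a feature without a read is listed at 0.9 of 1 read. Here values were returned to RPM, and features without a read were set to 0. All EZH2 values below 1000 reads were whole multiples of 1 read (tolerance 0.02). No column was left unmatched (0). EZH2+/+ RNA libraries held 25500000 to 30700000 reads on genes.

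The members and gene lists were chosen with earlier results of these data known. For gene names, the window with the most EZH2 was used. Marks were called above 0.1 log2 RPKM, and for the 4 classes input had to be below it. Named genes were the 12 with the highest EZH2 (input between its 1st and 99th percentile, at most 1 within 50 kb), the 5 highest with input over the 99th percentile, the 6 highest with H3K27me3 under the median, the 6 lowest in the highest percentile of H3K27me3, the 6 with the most RNA in the highest 1% of names, and the highest, the lowest and the study's own genes of each list. RNA was tested with limma 3.58.1 in R 4.3.3 (lmFit, eBayes with trend) on log2(RPM + 0.1) of all 12 libraries of 4 genotypes, after genes whose mean fell below 0.1 RPM were removed. Adding 0.1 RPM makes fold changes of weakly expressed genes smaller. The study used a count test on raw counts. Here the deposited values are on a log2 scale, and no count test was run on the reads recovered from them. Same-numbered libraries of EZH2+/+ and EZH2-/- cells deviated together (correlation 0.224, 0.249 and 0.493 for numbers 1, 2 and 3). Between libraries of these genotypes with different numbers it was at most 0.149. The other genotypes are not in these correlations. Values from a fit that adds a replicate block (the library number) are therefore also given. The limma script was tested on simulated data. Alternatives were another window per name, scaling to input, other thresholds, pseudocounts and filters, and leaving out libraries. Median ratio scaling, the alternatives for chromosome 17 and the share of EZH2-rich names called higher without each RNA library were added after seeing the data.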

Additional observations from a re-analysis of the deposited data

How the results depend on the processing

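Under median ratio scaling the split of calls over all genes turned from 2593 higher and 3870 lower to 3294 and 2918. No other recomputed result changed its direction. The correlation of EZH2 with H3K27me3 was 0.343 over all windows, 0.332 with 1 window per name (that with the most H3K4me3), 0.286 in windows that do not overlap and 0.472 after both were divided by input. The EZH2 ratio of bivalent to unmarked windows was 5.12, and it was 5.67 in windows that do not overlap, 6.43 after division by input, 7.35 with a threshold of 1 log2 RPKM and 5.00 without chromosome 17. The share of the highest EZH2 percentile with H3K27me3 was 99.1%, 98.2% when ranked by EZH2 divided by input and 77.4% in the highest 5%. Median EZH2+/+ RNA of the 345 names was 0.0452 RPM, 0.0296 RPM with the first listed window of each name and 0.534 RPM in the highest 5%, and 0.0333 to 0.0460 RPM when 1 library was left out. The share of the 345 names higher in EZH2-/- cells was 20.9%, 15.7% in the highest 5% and 6.09% with a mean of at least 1 RPM, where fewer genes were tested, and it ranged from 15.4% (without EZH2-/- library 2) to 22% with 1 library left out. It was 23.5% with the replicate block, under which 9339 genes were called in place of 6463. Leaving out 1 library gave 4107 to 5498 calls. The cause of these differences was not tested. PRDM12 lost its call without any of 5 libraries and with a pseudocount of 1 RPM, did not pass the filter without EZH2+/+ library 1, COL3A1 and LUM lost theirs without single libraries and with no filter, and the other genes whose RNA test is given kept theirs under every alternative run. EZH2 has 1 library, so none of its values has a replicate check, and 29 reads in the median window limit comparisons among low windows.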

Other observations

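Lineage markers differed in EZH2 within each lineage. At the window with the most EZH2, 4 of 6 endoderm markers reached 3.43 RPM (GATA6 highest at 8.74 RPM), while CER1, a secreted inhibitor of Nodal, had 0.258 RPM. Of 7 mesoderm markers 3 reached it (HAND1 highest at 7.42 RPM), and KDR, a receptor of vascular endothelial growth factor, had 0.472 RPM. Of 6 neuroectoderm markers 5 reached it (PAX6 highest at 8.04 RPM). Of 5 trophectoderm markers 3 reached it, and CGB, a chorionic gonadotropin gene, had 0.258 RPM. None of 8 undifferentiated ESC markers and none of 5 fibroblast markers reached it, with medians of 0.810 and 0.494 RPM. CER1 and KDR were over the H3K27me3 threshold with 12 and 8.68 RPM.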
